A study of Homo sapiens with 2 samples.

Results

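Interleukins, their receptors and the closely related cytokines CSF1, CSF2, CSF3, LIF and OSM with the receptors LIFR and OSMR were followed in mesothelioma cells in which CD26 had been lowered or raised. A probe belonged to the set when its gene symbol began with IL and a digit, IL8 excepted, or was one of those 7 genes. The rule took 97 probes of 91 genes, and 70 of these genes (73 probes) had a value on at least 1 of 2 arrays, out of 10750 genes in all. IL33 was listed under an older symbol and entered through its current one, and the interferon lambda gene IFNL2 entered as IL28A.

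One array compared ACC-MESO1 cells depleted of CD26 with control ACC-MESO1 cells. The other compared MSTO-211H cells that carried a transfected pLNCX2 vector with a CD26 insert with control MSTO-211H cells. Both are established human mesothelioma lines. The labels name the depleting agent as an siRNA in the design text and as an shRNA in the treatment protocol, and they do not say how the control cells were treated or whether either manipulated line was 1 clone. In the description of the transfection ratio, the control bears the same number as the depleted cells do in their own label. What that number stands for there was not resolved. On both arrays the manipulated cells were labelled with Cy3 and the control cells with Cy5, with no dye swap. Each comparison therefore rests on 1 array (n = 1), no test or replicate error can be given, and a dye effect of a gene would have the same sign on both.

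Interleukins are secreted signalling proteins that cells use to direct inflammation and the growth of blood cells. They act through paired receptor chains that fall into a few families: the IL-1 receptors signal through MYD88 and NF-kB, while the chains that share gp130 (IL6ST), the common gamma chain (IL2RG) or the common beta chain signal through JAK kinases and STAT factors. Mesothelial and mesothelioma cells are known to secrete some of these proteins, IL-6 and colony stimulating factors among them, while cytokines such as IL-21 and IL-5 are known chiefly from lymphocytes.

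All values are deposited log2 ratios of manipulated over control cells, averaged over the probes of a gene. They are differences within a line and not levels, so no member can be ranked against another by abundance, and a bright probe cannot be told from a dim one. In RNA from whole cultures, fewer cells of a type and less RNA per cell cannot be told apart. DPP4, the gene of CD26, had a log2 ratio of -3.92 in the depleted cells and 5.51 in the transfected cells, the direction of the labels. The only internal repeat was between probes of a gene, with a pooled SD of 0.418 on the depletion array (566 genes with several probes) and 0.452 on the transfection array (471 genes). Of the mesothelial markers, 14 of 16 had a value after depletion and 13 after transfection. Of 13 lymphocyte markers, 4 and 5 had one, and of 11 myeloid markers, 5 and 3; the leukocyte marker PTPRC had none on either array. Marker levels cannot be read from ratios.

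Members at least 2-fold higher or lower, a log2 ratio of 1 or more in size, were few on each array. In the depleted cells, 5 of 64 measured members were at least 2-fold higher (7.81%, against 3.31% of all genes on that array) and 0 were at least 2-fold lower (1.56% of all genes). The 5 were IL21, IL10, IL36RN, IL23A and IL31RA, of which 4 are ligands or antagonists. In the transfected cells, 5 of 58 members were at least 2-fold higher (8.62%, against 4.09% of all genes), namely IL13RA2, IL17RD, IL5, IL2RB and IL20. Another 2 were at least 2-fold lower (3.45%, against 1.37% of all genes), IL1B and the receptor subunit IL1RAP. As deposited, 0 of the 52 members measured on both arrays were past 2-fold on both, against 0.525% of all such genes, a share too small for the 0 to say anything of the members. When the arrays were centred on ribosomal protein genes, IL5 (1.16 after depletion and 1.71 after transfection) and IL6ST (1.24 and 1.03) were, which is 3.85% against 1.07% of all genes. All 12 genes past 2-fold as deposited rested on a single measured probe, and the shares were not tested. Of them, IL21, IL10, IL13RA2 and IL1B had no value on the other array and could not overlap.

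Promoter sequence is shown for the 4 of these 12 genes to which the RefSeq promoter table (GRCh38.p14) gives a single start, so that the window is not in doubt. Each window runs 5′ to 3′ on the gene's strand from 250 bases before the start to 50 bases after it. Capitals mark matches to AP-1 (TGANTCA), STAT (TTCNNNGAA) and NF-kB motifs, searched on both strands; no 2 matches overlapped in these windows. IL23A lies at chr12:56338634-56338933 (+ strand), IL1B at chr2:112836730-112837029 (- strand), IL21 at chr4:122621017-122621316 (- strand) and IL1RAP at chr3:190513835-190514134 (+ strand).
IL23A: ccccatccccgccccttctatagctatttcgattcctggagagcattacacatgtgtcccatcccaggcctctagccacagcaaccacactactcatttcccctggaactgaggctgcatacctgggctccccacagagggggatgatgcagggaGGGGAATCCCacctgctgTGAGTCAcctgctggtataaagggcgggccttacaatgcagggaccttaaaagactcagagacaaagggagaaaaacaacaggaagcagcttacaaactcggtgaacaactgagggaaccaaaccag
IL1B: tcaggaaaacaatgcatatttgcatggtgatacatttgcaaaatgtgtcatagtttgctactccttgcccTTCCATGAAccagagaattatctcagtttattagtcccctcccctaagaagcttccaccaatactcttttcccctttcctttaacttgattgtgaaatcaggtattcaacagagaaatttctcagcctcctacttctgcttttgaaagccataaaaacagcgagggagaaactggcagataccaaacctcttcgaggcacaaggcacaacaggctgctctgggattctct
IL21: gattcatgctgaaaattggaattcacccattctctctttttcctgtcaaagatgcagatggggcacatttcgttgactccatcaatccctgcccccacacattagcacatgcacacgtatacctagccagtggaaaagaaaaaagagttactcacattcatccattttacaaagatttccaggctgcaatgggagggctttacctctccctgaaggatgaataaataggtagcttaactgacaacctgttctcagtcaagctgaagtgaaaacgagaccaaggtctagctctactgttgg
IL1RAP: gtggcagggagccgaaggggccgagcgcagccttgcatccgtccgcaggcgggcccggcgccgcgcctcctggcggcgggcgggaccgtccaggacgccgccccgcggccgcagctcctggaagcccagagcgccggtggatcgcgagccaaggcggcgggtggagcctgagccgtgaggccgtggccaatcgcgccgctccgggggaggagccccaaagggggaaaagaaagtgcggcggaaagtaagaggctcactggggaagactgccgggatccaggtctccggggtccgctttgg

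The IL23A window held an NF-kB match beginning 95 bases before the start and an AP-1 match beginning 77 bases before it. IL1B held a STAT match 180 bases before the start, and the windows of IL21 and IL1RAP held none of the 3 motifs. The table had windows for 57 of the 70 members. AP-1 matches were in 19.6% of their 92 windows, against 7.71% of all 35116 windows; STAT matches in 14.1% against 7.66%; and NF-kB matches in 17.4% against 11.3%. The median GC content was 51.3% in the members' windows and 58.7% in all windows, and its part in these shares was not tested. Several windows can belong to a single gene. Counted by gene, AP-1 matches were found in 14 of 57 members (24.6%) and in 9.37% of all 27305 genes. STAT matches were in 21.1% against 9.38%, and NF-kB matches in 28.1% against 13.3%. A gene with more windows has more chances of a match. The 57 members had 92 windows and the 27305 genes 35116, and this was not adjusted for. A match describes the letters and is not a bound site.

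**Figure D1:**
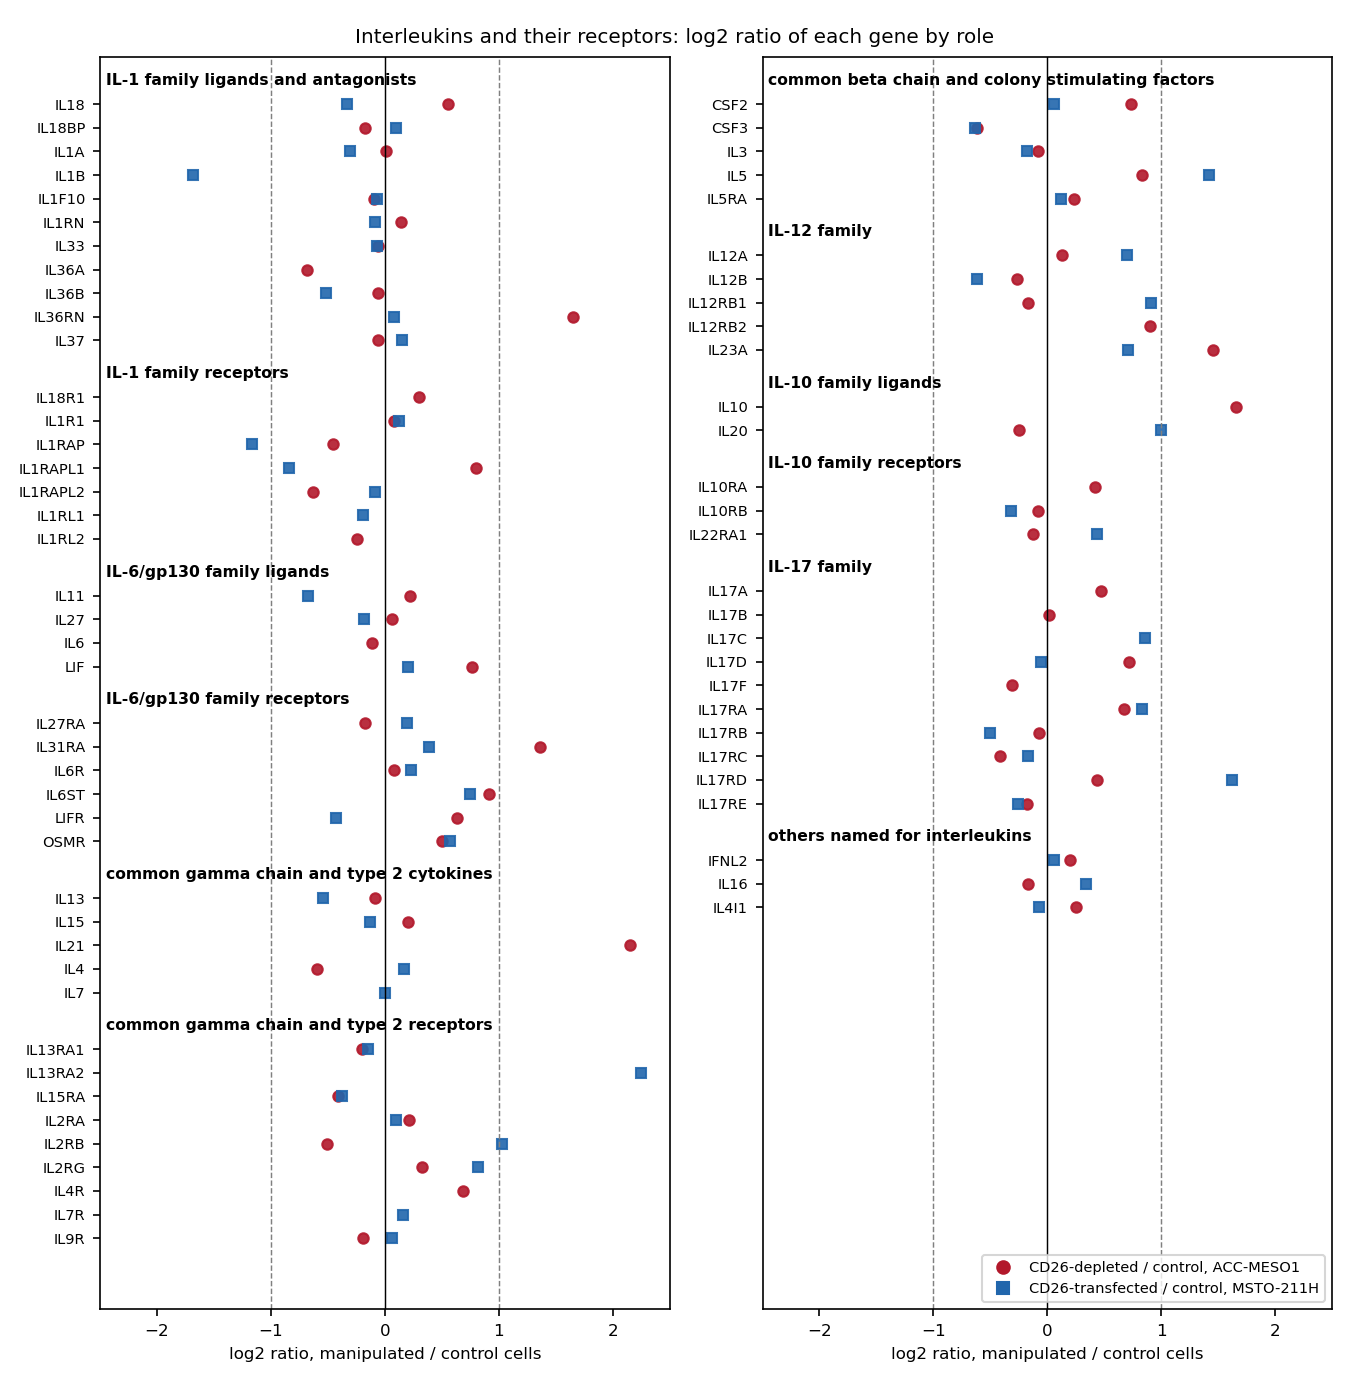
Log2 ratio of each of the 70 genes (horizontal axis, manipulated over control cells), grouped by role, with circles for the CD26-depleted ACC-MESO1 array and squares for the CD26-transfected MSTO-211H array, and dashed lines at 2-fold. Each symbol is a single array; IL21, IL10, IL36RN, IL23A and IL31RA are the circles to the right of 1, and IL1B and IL1RAP the squares to the left of -1.

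Among IL-1 family ligands, the 2 arrays picked out an inflammatory ligand and an antagonist. IL1B, the classic pro-inflammatory cytokine cleaved by caspase-1, had a log2 ratio of -1.68 in transfected MSTO-211H cells (3.21-fold lower), the 14th lowest of 9359 genes, and no value on the depletion array. IL1A, which binds the same receptor, was at 0.006 after depletion and -0.31 after transfection. IL36RN, the antagonist of the IL-36 receptor, was at 1.66 in depleted cells (3.15-fold higher) and 0.08 in transfected cells. The IL-36 agonist IL36A was the lowest member of all in depleted cells (-0.69) and had no value in transfected cells, and IL36B was at -0.06 and -0.51. So in depleted cells the antagonist was past 2-fold and neither measured agonist was.

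IL1RN, the antagonist of the IL-1 receptor, stood at 0.15 and -0.09, and its 2 measured probes at 0.27 and 0.02 after depletion and 0.10 and -0.27 after transfection. The probe values were closer together than the pooled probe SD. IL18, a caspase-1 substrate like IL1B, was at 0.55 after depletion and -0.34 after transfection, and its soluble inhibitor IL18BP at -0.17 and 0.10. The alarmin IL33 was at -0.06 and -0.07, IL37, an anti-inflammatory member, at -0.06 and 0.15, and IL1F10 at -0.09 and -0.07. The median of the 10 measured ligands and antagonists was -0.06 in depleted cells and -0.08 in transfected cells, against 0.01 and 0.007 for all genes. Both medians were above 0 when the arrays were centred on ribosomal protein genes (0.27 and 0.21), but still below those of all genes (0.34 and 0.29).

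IL1RAP, the accessory chain that IL-1, IL-33 and IL-36 receptors all need to signal, was at -0.45 in depleted cells and -1.17 in transfected cells (2.25-fold lower). It was below 0 on both arrays. With ribosomal centring the second value was -0.88, short of 2-fold. The ligand-binding chain IL1R1 was near 0 on both (0.08 and 0.12). Of the chains measured on a single array, IL1RL1, the IL-33 receptor, was at -0.19 after transfection, while IL1RL2, the IL-36 receptor, was at -0.24 and IL18R1 at 0.30 after depletion. IL1RAPL1, a neuronal relative that organises synapses, had opposite signs, 0.80 after depletion and -0.84 after transfection, and its paralog IL1RAPL2 was at -0.63 and -0.09. In the transfected cells, then, the ligand IL1B and the accessory chain IL1RAP were both past 2-fold lower, and IL1R1 and IL1RN were not.

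Receptors of the gp130 family were mostly above 0 on both arrays. IL6ST, gp130 itself, had log2 ratios of 0.91 in depleted cells (1.89-fold higher) and 0.75 in transfected cells (1.68-fold higher), and its partner OSMR, the oncostatin M receptor, 0.51 and 0.57. IL31RA, a relative of gp130 that pairs with OSMR in its place to bind IL-31, was at 1.37 after depletion (2.58-fold higher) and 0.39 after transfection. LIFR was at 0.63 and -0.43, IL6R, the ligand-binding chain for IL-6, at 0.08 and 0.23, and IL27RA at -0.17 and 0.20. The median of the 6 receptors was 0.57 in depleted cells and 0.31 in transfected cells, with 5 of 6 above 0 on each array, against 51.3% and 50.7% of all genes. Without IL31RA the 5 that use gp130 itself had medians of 0.51 and 0.23, with 4 above 0 on each array and none past 2-fold. Centred by autosome, the medians of the 6 were 0.56 after depletion and 0.26 after transfection. With ribosomal centring they were 0.90 and 0.59, against 0.34 and 0.29 for all genes. Neither that upward shift nor scaling to a common spread could have brought them below 0.

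Of the ligands of these receptors, LIF, leukemia inhibitory factor, had 0.76 in depleted cells and 0.20 in transfected cells. IL11 was at 0.22 and -0.68 and IL27 at 0.06 and -0.18. IL6 was at -0.11 after depletion, with no value after transfection, and OSM had none on either array. No gp130 ligand was past 2-fold. As genes downstream, JAK1, a kinase bound to gp130, was at 1.13 after depletion and 0.21 after transfection, and TYK2 at 0.54 and 0.14. JAK2, a further kinase of gp130, was at 0.24 after depletion and -0.74 after transfection. STAT3 was at 0.23 after depletion, with no value after transfection. SOCS3, the feedback inhibitor of gp130, was at 0.02 and -0.36.

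IL21, a common gamma chain cytokine of T helper cells, was the highest member in depleted cells. Its log2 ratio was 2.15 (4.44-fold higher), rank 23 of 10347 genes, with no value on the transfection array. IL21R, its receptor chain, had no value on either array, and IL2RG, the common gamma chain, was at 0.32 in depleted cells and 0.82 in transfected cells. The other ligands of this group stayed within 2-fold, with IL15 at 0.20 and -0.13, IL4 at -0.59 and 0.17, IL13 at -0.09 and -0.54, and IL7 at -0.0002 after transfection.

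IL13RA2, the decoy receptor that binds IL-13 with high affinity, was the highest member in transfected cells. It had a log2 ratio of 2.25 (4.75-fold higher), the 15th highest of 9359 genes, and no value in depleted ACC-MESO1 cells. Its signalling counterpart IL13RA1 was close to 0 on both arrays (-0.20 after depletion and -0.15 after transfection). IL4R, which completes the signalling IL-13 receptor, was at 0.69 after depletion and had no value after transfection.

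IL2RB, the chain shared by the IL-2 and IL-15 receptors, had opposite signs, -0.51 in depleted cells and 1.03 in transfected cells (2.05-fold higher). Its partners did not do so: IL2RA, the alpha chain of the IL-2 receptor, was at 0.21 and 0.10, IL15RA at -0.41 and -0.38, and IL2RG at 0.32 and 0.82. IL9R was at -0.19 and 0.06, and IL7R at 0.16 after transfection only. IL2RB and IL1RAPL1 were the only members with opposite signs at a size of at least 0.5 on both arrays, 3.85% of 52 against 2.40% of all genes. IL2RB had the signs of DPP4 and IL1RAPL1 the reverse. With ribosomal centring IL2RB was at -0.18 after depletion, which left IL1RAPL1 alone (1.92%, against 1.97% of all genes).

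IL5, which drives eosinophils through a receptor built on the common beta chain, was at 0.83 in depleted cells (1.78-fold higher) and 1.42 in transfected cells (2.68-fold higher). Both values were above 0, and its receptor chain IL5RA was at 0.23 and 0.12 and the common beta chain CSF2RB at -0.40 and -0.01. CSF2, the granulocyte-macrophage factor, was at 0.74 and 0.06. CSF3, the granulocyte factor, was below 0 on both arrays (-0.61 and -0.64), and IL3 was at -0.08 and -0.18. CSF1 and IL3RA had no value.

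IL23A encodes the subunit that makes IL-23 together with the IL12B chain. It was at 1.46 in depleted cells (2.75-fold higher) and 0.71 in transfected cells (1.63-fold higher), while IL12B was below 0 on both (-0.27 and -0.62). IL12A, the other partner of IL12B, was at 0.13 and 0.70. The shared receptor chain IL12RB1 was at -0.17 in depleted cells and 0.91 in transfected cells, IL12RB2 at 0.90 after depletion, and IL23R had no value. The 2 chains of IL-23 thus lay on opposite sides of 0 on both arrays, except that IL12B was at 0.06 after depletion with ribosomal centring.

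IL10, an anti-inflammatory cytokine, was at 1.66 in depleted cells (3.16-fold higher, rank 87 from the top) with no value in transfected cells. Its receptor chains IL10RA and IL10RB were at 0.42 and -0.08 after depletion, and IL10RB at -0.32 after transfection. IL20, a relative that acts on epithelia, was at -0.25 in depleted cells and 1.0016 in transfected cells, just at 2-fold; next below it in transfected cells was IL12RB1 at 0.91. Scaled to a common spread, IL20 was at 0.99. IL22RA1, a receptor chain for IL-20 and IL-22, was at -0.12 and 0.43.

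In the IL-17 family the member past 2-fold was a receptor. IL17RD, a receptor-like protein known to restrain FGF signalling, was at 0.44 in depleted cells and 1.62 in transfected cells (3.08-fold higher). IL17RA, the chain common to IL-17 receptors, was at 0.67 and 0.83, while IL17RC, its partner for IL-17A, was at -0.41 and -0.17, IL17RB at -0.07 and -0.51 and IL17RE at -0.18 and -0.26. IL17RA and IL17RD were above 0 on both arrays, and IL17RB, IL17RC and IL17RE below 0 on both as deposited. With ribosomal centring, IL17RB after depletion (0.26), IL17RC after transfection (0.11) and IL17RE on both arrays (0.15 and 0.02) were above 0. Of the ligands, IL17D was at 0.72, the highest of the family after depletion, and at -0.05 after transfection, IL17C at 0.86 after transfection, slightly above IL17RA, and IL17A (0.48), IL17B (0.01) and IL17F (-0.31) had values after depletion only.

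The remaining members were all within 0.5 of 0. The chemoattractant IL16 was at -0.17 and 0.34, IFNL2 at 0.20 and 0.06, and IL4I1, a secreted amino acid oxidase, at 0.25 and -0.07. IL4I1 had 3 probes, at 0.12, 0.04 and 0.60 after depletion and -0.29, -0.30 and 0.39 after transfection. After transfection its sign thus depended on the probe.

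Many of these genes sit in clusters, where some neighbouring members had like values and others did not. Only members of the set were placed in the clusters, and other genes lying between them were not examined. In the IL-1 ligand cluster on chromosome 2 (9 members, GRCh38.p14 chr2:112773925-113134014), IL36RN at 1.66 after depletion lies between IL36B at -0.06 and IL1F10 at -0.09. IL1B at -1.68 after transfection lies between IL1A at -0.31 and IL37 at 0.15. In the cluster on chromosome 5 (chr5:132060655-132682678), IL5 at 0.83 and 1.42 lies between CSF2 at 0.74 and 0.06 and IL13 at -0.09 and -0.54. IL5 and CSF2 were thus alike after depletion and apart after transfection; beyond IL13, IL4 was at -0.59 and 0.17. On chromosome 1 (chr1:206767602-206904139), only IL10 and IL20 of 4 members had values, and the annotated span of IL19, which had none, overlaps that of IL10. The 6 receptor genes on chromosome 2 (chr2:101991960-102452565) lay between -0.24 and 0.30 where measured.

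**Figure D2:**
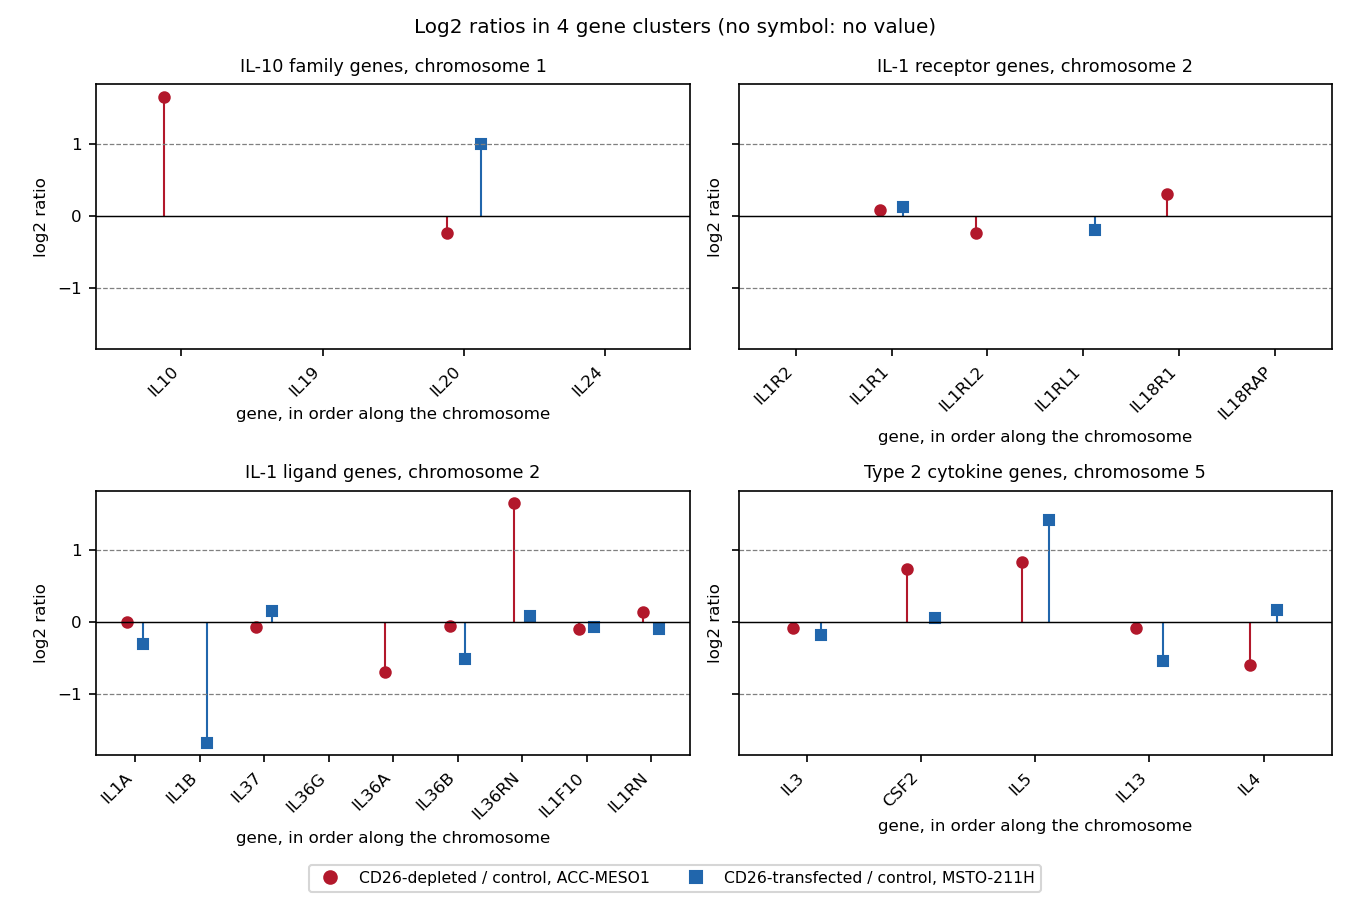
Log2 ratio (vertical axis) of the genes of 4 clusters in their order along the chromosome, with circles for CD26-depleted over control ACC-MESO1 cells and squares for CD26-transfected over control MSTO-211H cells. IL36RN (depletion) and IL1B and IL5 (transfection) stand apart from the measured members on either side, while IL5 and CSF2 are alike after depletion. Genes outside the set are not drawn, and a gene with no symbol had no value.

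For the 52 members measured on both arrays, 32 had the same sign and 20 (38.5%) opposite signs, against 46.9% opposite among all 8956 such genes. Of the 32, 17 were above 0 on both and 15 below 0 on both, or 35 and 3 with ribosomal centring, which leaves 14 with opposite signs (26.9%, against 30.1% of all genes). Across members, Pearson's r between the arrays was 0.28 and Spearman's rho 0.26, against 0.06 and 0.08 across all genes. These describe genes of single arrays that share the dye orientation, and genes are not independent replicates. Members at 0.5 or more in size on both arrays were IL23A, IL5, IL6ST, IL17RA and OSMR above 0, CSF3 below 0, and IL1RAPL1 and IL2RB with opposite signs. The 6 with the same sign were 11.5% of the 52, against 3.27% of all genes. With ribosomal centring 8 members had the same sign at that size, which is 15.4% against 10.9% of all genes. CSF3 (-0.29 and -0.35) was then no longer among them.

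**Figure D3:**
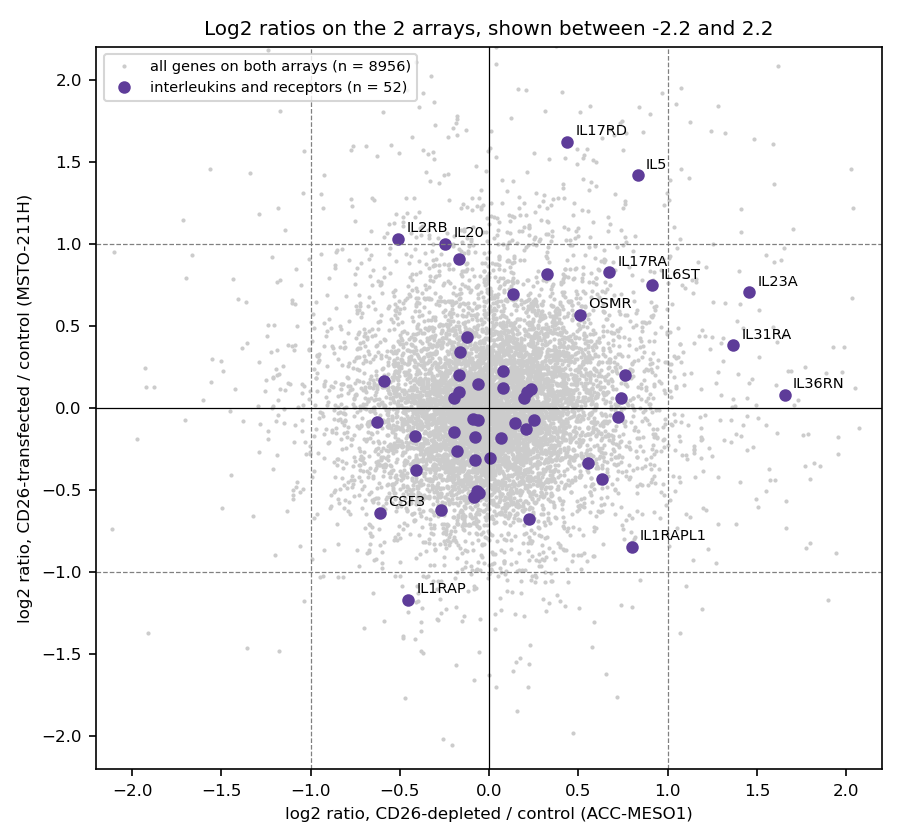
Log2 ratio on the transfection array (vertical axis) against that on the depletion array (horizontal axis), with dashed lines at 2-fold. Large points are the 52 members measured on both, and small points are from the 8956 genes measured on both. The axes are cut, so genes with larger ratios, DPP4 (-3.92 and 5.51) among them, are not shown. As deposited, 0 of 52 members lie outside the dashed lines on both axes, as do only 0.525% of all genes, and the named points at upper right, IL23A, IL5, IL6ST, IL17RA and OSMR, are above 0.5 on both.

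Absence of a value was more common among interleukin probes than elsewhere. Of 97 member probes, 24 had no value on either array (24.7%), against 14.4% of the 13395 probes with a gene symbol. The sources used here do not give the rule by which a probe was left without a value. Genes with a value on a single array were more often past 2-fold. After depletion these were 2 of 12 members measured on that array alone (16.7%), IL21 and IL10, and 3 of 52 measured on both (5.77%), against 13.2% and 3.56% of all genes. After transfection they were 2 of 6 (33.3%), IL13RA2 and IL1B, and 5 of 52 (9.62%), against 31.8% and 4.28% of all genes. The highest and the lowest member of each array (IL21 and IL36A after depletion, IL13RA2 and IL1B after transfection) had no value on the other. What the missing values have to do with these sizes was not tested.

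Related genes outside the set were mostly within 2-fold, as were most genes: at least 2-fold higher were 3.31% of all genes after depletion and 4.09% after transfection, and at least 2-fold lower 1.56% and 1.37%. Among JAK, STAT and SOCS genes, 1 of 22 was at least 2-fold higher and 0 lower after depletion (JAK1, 1.13), and 0 of 20 higher and 1 lower after transfection (SOCS2, a receptor feedback inhibitor, -1.36). SOCS1, which restrains JAK kinases, had opposite signs, 0.64 in depleted cells and -0.83 in transfected cells. Of IL-1 receptor signalling genes, 0 of 19 were past 2-fold after depletion, and 1 of 15 after transfection, where the kinase gene IKBKB was at -1.44. MYD88, the IL-1 receptor adaptor, was at -0.16 and 0.03. None of 14 and 11 other cytokine receptors and ligands were past 2-fold; CSF1R, the CSF1 receptor, was highest after depletion (0.93), and KITLG, stem cell factor, after transfection (0.81).

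Of the 6 lists of related genes, those that cells are known to induce on IL-1 had the median farthest from 0 in depleted cells. There, 7 of 13 were at least 2-fold higher (53.8%, against 3.31% of all genes) and 0 lower (1.56% of all genes). Their median was 1.22, against 0.01 for all genes. In the same cells IL1A, IL1RN, IL1R1 and IL1RAP were all within 2-fold and IL1B had no value. In transfected cells, 1 of 10 was at least 2-fold higher (the chemokine CXCL1, 1.54), against 4.09% of all genes. There 0 were lower, against 1.37% of all genes, and the median was 0.19. Many of these genes also respond to TNF, and the list was put together with their values in the depleted cells known, so its count there is no independent evidence. The feedback inhibitor TNFAIP3 (1.22 and -0.62) and the apoptosis inhibitor BIRC3 (2.77 and -0.77) had opposite signs on the 2 arrays, and CXCL1 the same sign (2.46 and 1.54).

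Genes known to respond to IL-6 and STAT3 were near 0, with medians of 0.03 over 13 genes and -0.10 over 11. The protease inhibitor TIMP1 was the member past 2-fold after depletion (1.30), which is 7.69% higher, against 3.31% of all genes. After transfection 0 were past 2-fold, where 4.09% of all genes were higher and 1.37% lower. Of genes known to respond to IL-4 and IL-13, 2 of 13 were at least 2-fold higher after depletion (15.4%, against 3.31% of all genes). These were the transglutaminase TGM2 (2.63) and the arginase ARG1 (1.36), and 0 were lower, against 1.56% of all genes. After transfection POSTN, periostin, was at least 2-fold higher (3.57), which is 9.09% of the list against 4.09% of all genes. On that array 0 were lower, against 1.37% of all genes. There, 9 of 11 lay below 0 (49.3% of all genes did) and the median was -0.33. That median was the farthest from 0 of the 6 lists on that array. All 6 lists were chosen with earlier results of these data known, so the ranking is no independent evidence. With ribosomal centring 6 of 11 lay below 0 and the median was -0.04, against a median of 0.29 for all genes. The chemokine genes CCL22 (-0.98), CCL26 (-0.82) and CCL11 (-0.57) and the receptor inhibitor SOCS1 (-0.83) were among those below 0. Apart from POSTN, the highest measured gene of that list in transfected cells was the chemokine gene CCL17 at 0.19.

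**Figure D4:**
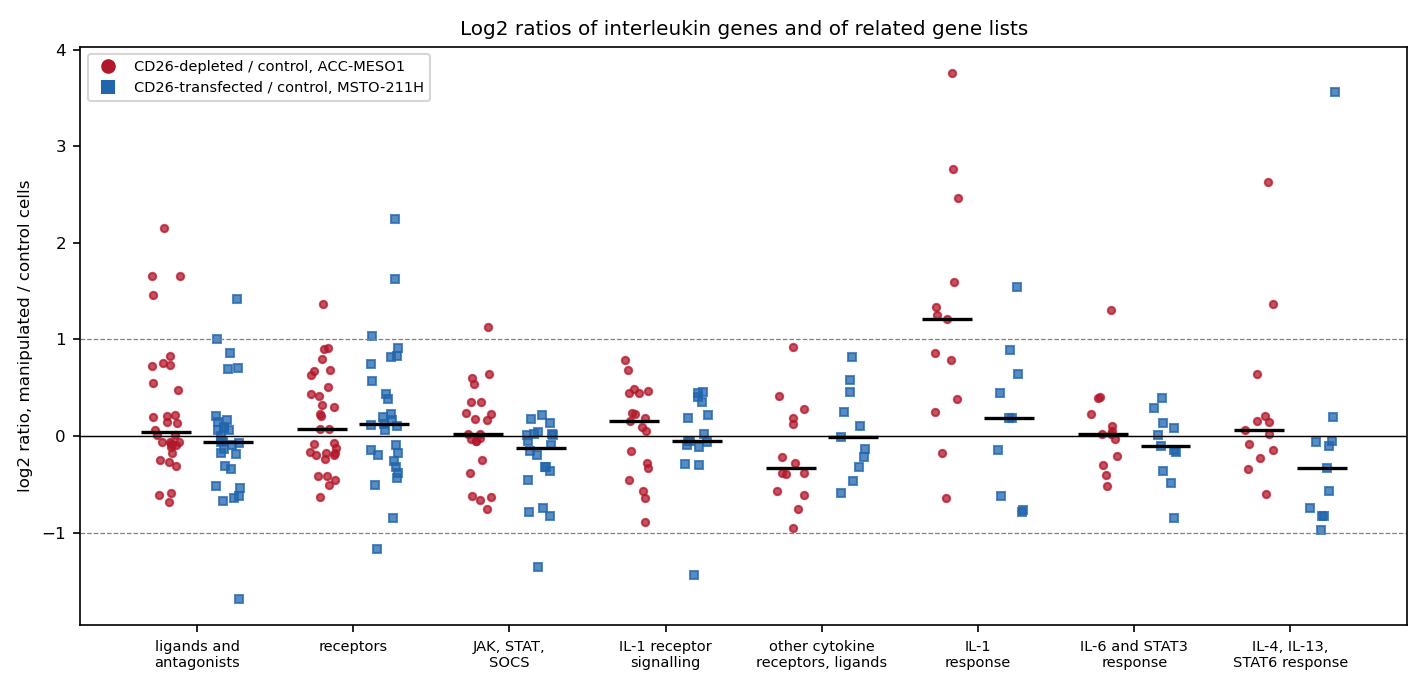
Log2 ratios (vertical axis, manipulated over control cells) of the interleukin ligands and receptors and of 6 lists of related genes, with circles for the depletion array, squares for the transfection array, bars at medians and dashed lines at 2-fold. The IL-1 response genes in depleted cells have the highest median (1.22), but that list was put together with those values known. The medians of ligands (0.04 and -0.06) and receptors (0.08 and 0.12) lie near 0.

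Over all members the median log2 ratio was 0.07 in depleted cells and 0.06 in transfected cells, against 0.01 and 0.007 for all genes. In all, 42 of 64 members after depletion (65.6%) and 36 of 58 after transfection (62.1%) lay within 0.5 of 0, against 77.4% and 77.5% of all genes. When the arrays were centred on ribosomal protein genes, which moved every gene up by 0.33 and 0.29, the members past 2-fold became 13 higher and 0 lower after depletion, against 7.64% and 0.416% of all genes. After transfection they became 10 higher and 1 lower, against 7.77% and 0.492% of all genes.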

How the data were processed

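RNA was compared on 2 arrays of 2 colours each, 1 per cell line; TRIZOL extraction and amino allyl amplification are given per the labels' protocols. The authors deposited normalized log2 ratios of manipulated over control cells, per the labels' descriptions, and each array's median over probes was 0. The sources used here do not give the background correction, normalization method, scanner, build or channel intensities, so no depth or detection limit can be stated, and the number of arrays limits precision.

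Of 24267 probes, 13395 had 1 gene symbol in the platform annotation and 10872 had none. Symbols were brought up to date with RefSeq (GRCh38.p14): 10076 were current, 2285 changed through a synonym, and 113 with several candidates kept. The probes of each gene were averaged (Python 3.11.15, pandas 2.3.3), giving 10347 and 9359 genes, and the steps were tested on simulated data. Past 2-fold means 1 or more in size on the log2 scale. With 1 array per comparison no test was made. Alternatives were thresholds of 0.5 and 1.5, centring on ribosomal protein genes (34 measured on each array) or by autosome, a common spread, other rules for probes, genes on both arrays, and symbols as listed.

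The members, lists, roles and motifs were chosen with earlier results of these data known. The naming rule opened all members to naming and, of the other lists, took members past 2-fold and the highest and lowest. Other genes of those lists named within 2-fold were added after their values were seen. Some genes that the rule took were not described above. Of the IL-1 response genes after depletion, the values not given above were those of MMP3 (3.75), CXCL2 (1.33) and the lowest, NFKBIZ (-0.64). The highest or lowest gene of some other lists was also left out.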

Additional observations from a re-analysis of the deposited data

How the results depend on the processing

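No paired analysis was possible because each comparison has 1 array. The number of members past 2-fold, 5 after depletion and 7 after transfection, was 13 and 11 with ribosomal centring, 22 and 22 at a threshold of 0.5, and 3 and 3 at 1.5. At 0.5 the 22 were 17 higher and 5 lower after depletion (12.8% and 9.80% of all genes were) and 13 higher and 9 lower after transfection (13.1% and 9.40%). At 1.5 they were 3 higher and 0 lower after depletion (1.21% and 0.213%) and 2 higher and 1 lower after transfection (1.51% and 0.235%). Among genes measured on both arrays, 3 were past 2-fold after depletion and 5 after transfection, which is fewer by construction, since IL21, IL10, IL13RA2 and IL1B drop out. Centring by autosome, the probe median, the largest probe and symbols as listed left both counts at 5 and 7, and a common spread gave 5 and 6. The median of all members after transfection, 0.06, was -0.03 when centred by autosome. No member past 2-fold changed sign under the centrings, scaling and probe rules tried, but most of these could not change a sign. Each such member had a single measured probe, which the probe rules cannot alter. Scaling keeps the sign, and ribosomal centring moved values by only 0.33 and 0.29. The members that crossed the threshold downward were IL1RAP and IL20. With ribosomal centring 8 members after depletion and 5 after transfection crossed it upward, among them IL6ST on both.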

Other observations

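Markers of stromal cells gave values on both arrays. Of 9 fibroblast markers, 8 had a value after depletion, with a median of -0.03 and MFAP5 (1.96) past 2-fold, and 6 after transfection, with a median of -0.49 and none past 2-fold. Endothelial markers had medians of -0.07 over 6 genes and -0.42 over 5. Mesothelial markers had medians of 0.07 and 0.10, with ITLN1 (1.38) past 2-fold after depletion and MSLN (-1.31) and KRT18 (-1.16) past it after transfection. Lymphocyte markers had medians of 0.08 over 4 genes and 0.02 over 5, with CD3E (1.88) past 2-fold after transfection, and myeloid markers 0.13 over 5 and -0.30 over 3. Their part in the interleukin values was not tested.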
